A study of Danio rerio with 6 samples.

Results

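The Hox genes were followed here through the translation efficiencies of zebrafish embryos mutant for mycn and of wild-type embryos of the strain AB, all at 72 h after fertilization. A member was any gene whose symbol was built of hox, a cluster letter from a to d, a paralog group number and a final a or b for the duplicated cluster. This found 48 genes among the 21392 measured. Ribosome footprints were sequenced by Ribo-seq in 2 wild-type and 2 mycn mutant samples of whole embryos dissociated to single cells, and mRNA by RNA-seq in 1 sample of each genotype. The mutant allele, and whether a sample pooled embryos of 1 clutch or of several, are not given in the labels, so the spread between replicates may be technical. Each deposited value is a translation efficiency of a gene in 1 Ribo-seq library. It was read as a ratio of footprint to mRNA abundance, both scaled for length and library size. The ratio rises equally with added footprints and with lost mRNA, and in whole embryos fewer cells that use a gene and less RNA per cell cannot be told apart. The depth behind a ratio is unknown.

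Hox genes encode homeodomain transcription factors that give cells their position along the head-to-tail axis. They lie in clusters, and genes at one end of a cluster (low paralog group numbers) act in the hindbrain and pharyngeal arches, whereas those at the other end act in the trunk, tail and fins. Genes of the same number in different clusters are paralogs that often share functions, and most clusters of zebrafish come in duplicates named a and b. The members fell into 7 clusters, with 6 genes in hoxaa, 5 in hoxab, 11 in hoxba, 4 in hoxbb, 11 in hoxca, 4 in hoxcb and 7 in hoxda. By paralog group, 9 were anterior (groups 1 to 3), 16 central (groups 4 to 8) and 23 posterior (groups 9 to 13). All 48 symbols were found in the RefSeq gene table of the assembly GRCz12tu, which holds 1 further Hox gene of this form, hoxa3a, not analysed here.

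Markers of several tissues were read beside the label of whole embryos. All 25 markers of skeletal muscle, neurons, erythroid cells, epidermis, liver and lens were above 0 in all 4 libraries. So were 17601 of all 21392 genes, and a ratio above 0 holds no level, so this does not check the label. Some of their ratios differed between genotypes. The median of the 4 erythroid markers was 0.838 and 0.799 in wild type and 4.26 and 4.43 in mutants. Of these markers, 3 were higher and 1 lower without overlap of the genotypes. The median of the 4 liver markers was 0.824 and 0.907 against 1.14 and 1.15. All 4 liver folds were positive, 3 without overlap. Lower without overlap were 4 of 5 skeletal muscle and 3 of 4 epidermal markers, while 1 muscle marker was higher. Of the 5 neuronal markers, 1 was higher and 1 lower, and all lens markers overlapped. Over all tested genes, 23.1% were higher and 21.6% lower without overlap. None of the 17601 tested genes passed the test, these markers among them. The part of the markers in the Hox values was not tested. The ratio of mycn itself does not check the genotype, since a ratio holds no level.

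No Hox gene passed the test between mutants and wild type, and neither did any other gene (0 of 17601, 0%). Most Hox genes had ratios near or below those of other genes. Of paralog group 1, hoxc1a stood above every other member in each library, and hoxb1a came second in 3 of the 4, with a lower value in the second wild-type library. In the hoxda cluster, singled out after the values were seen, 6 of 7 genes had both mutant libraries below both wild-type libraries, as did 21.6% of all tested genes. Most Hox ratios carried signs of low coverage, so the values below are given library by library.

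Zeros and repeated values were taken as signs of low coverage. A gene was listed at 0 in 5 of the 192 Hox values, and these belonged to 4 genes, all of the hoxaa cluster. Zeros were rarer than among all genes in each library, at 2.08% to 4.17% of Hox genes against 5.86% to 9.98%. The ratio of hoxa1a was 0.263 and 0 in wild type and 0.782 and 1.60 in mutants. That of hoxa5a, whose mouse counterpart acts in the lung and the cervical spine, was 0.517 and 0 in wild type and 0.133 and 0.491 in mutants. That of hoxa11a was 0 and 1.06 in wild type and 1.47 and 0 in mutants, and that of hoxa13a 0.993 and 0.270 against 0 and 1.92. Wherever a library was at 0, the other replicate of its genotype was not. With these genes left out, 44 Hox genes above 0 in all 4 libraries were tested.

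A value was counted as repeated where a further gene had it in that library, to 9 significant digits, as happens when small whole numbers are divided. Of the 187 Hox values above 0, 155 (82.9%) were repeated, against 64.7% to 67.1% of the values of all genes in a library. All 4 values were repeated in 26 Hox genes, and hoxc1a was the only one with no repeated value. Some Hox genes shared a value with each other. In the first mutant library hoxc11a and hoxd12a both had the ratio 0.626, as did 86 further genes, and in the second mutant library hoxb8b and hoxc13a both had 1.465. In the second wild-type library hoxc9a and hoxc11b both had 1.445.

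**Figure D1:**
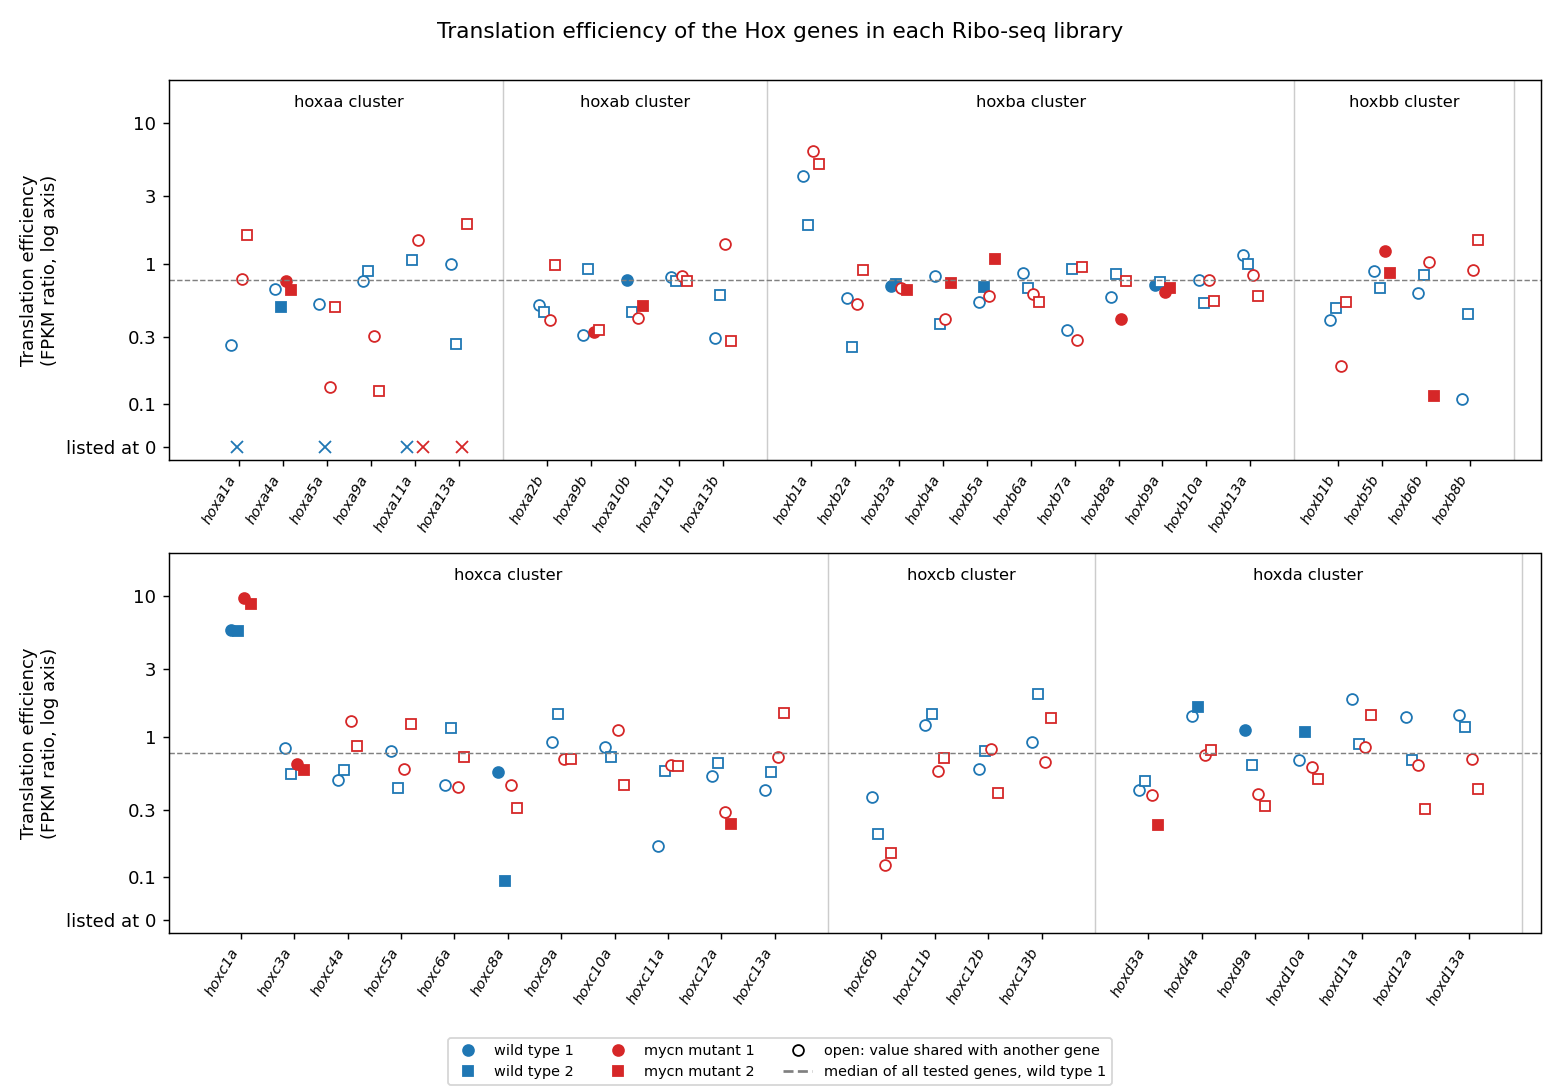
Translation efficiency of each of the 48 Hox genes (log axis, genes ordered by cluster and paralog group) in the 2 wild-type (blue) and 2 mycn mutant (red) Ribo-seq libraries. Open symbols are values shared with another gene of that library, crosses are genes listed at 0, and the dashed line is the median of all tested genes in wild-type replicate 1; hoxc1a lies above the other genes in each library, hoxb1a above the rest in each but wild-type replicate 2 (1.89, against 1.99 for hoxc13b), and the crosses are all in the hoxaa cluster.

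The median ratio of the 44 tested Hox genes was 0.698 and 0.678 in wild type and 0.626 and 0.651 in mutants. The corresponding medians of all 17601 tested genes were 0.762, 0.765, 0.779 and 0.779. Hox genes above the median of all tested genes numbered 19 and 17 of 44 in wild type and 12 and 14 of 44 in mutants. Most Hox genes were thus below that median in every library, and more of them in the mutant libraries.

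The spread between replicates of 1 genotype was set beside that of all genes. The median absolute difference between wild-type replicates was 0.432 on the log2(ratio + 0.1) scale for Hox genes and 0.298 for all tested genes, and between mutant replicates it was 0.500 and 0.309. Replicates differed by more than 2-fold on this scale for 8 of 44 Hox genes in wild type (18.2%, against 10.4% of all tested genes) and for 6 of 44 in mutants (13.6%, against 12.8%). Across the 44 Hox genes, which are not independent replicates, Pearson's r of the log2 values was 0.618 between the wild-type libraries and 0.684 between the mutant libraries. Without hoxb1a and hoxc1a it was 0.388 and 0.292 over 42 genes, so the agreement between replicates rested largely on these 2 genes. There was 1 RNA-seq sample of each genotype, and the denominator is not stated. If that sample was used, the ratios of a genotype share 1 mRNA measurement. The spread between replicates, the standard errors and the tests then hold no variation in mRNA.

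**Figure D2:**
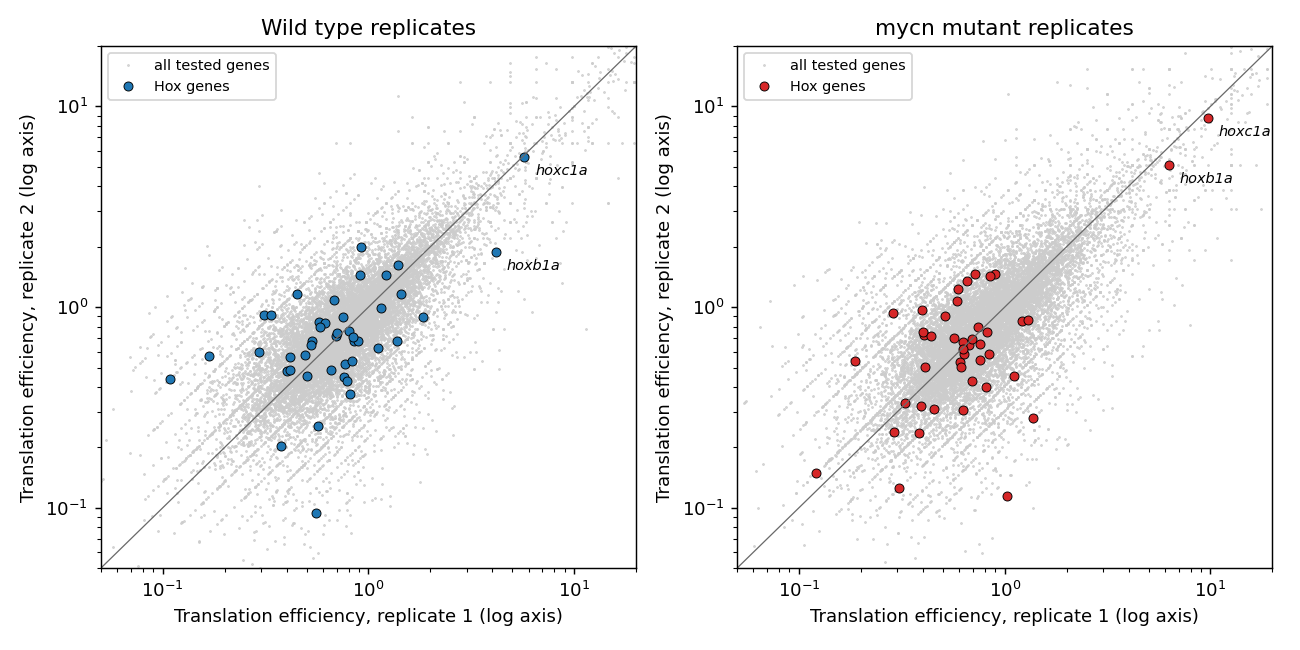
Translation efficiency in replicate 1 (x axis) against replicate 2 (y axis) of wild type (left) and of mycn mutants (right), both on log axes cut at 0.05 and 20, for the 44 tested Hox genes (coloured) and all tested genes (grey), with the line of equal values. Many Hox genes lie off the line, whereas hoxc1a lies near it in wild type at 5.72 and 5.59 and in mutants at 9.70 and 8.73, as do some others such as hoxb3a.

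Among the anterior genes, paralog group 1 held both the highest and some of the lowest ratios. Genes of this group act in the hindbrain, where hoxb1a sets the identity of the fourth rhombomere and of its facial motor neurons in zebrafish. The ratio of hoxc1a was 5.72 and 5.59 in wild type and 9.70 and 8.73 in mutants, so that 97.1% to 98.1% of all genes had a lower ratio in each library. Both mutant libraries were above both wild-type libraries, and replicates lay close together. The log2 fold of hoxc1a was 0.69 (SE 0.20, limma adjusted p = 0.367), and when only the 2626 genes with no repeated value were fitted it had an adjusted p = 0.0557, with 36 of those genes (1.37%) called.

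The ratio of hoxb1a was 4.17 and 1.89 in wild type and 6.26 and 5.13 in mutants. The groups did not overlap, but the wild-type replicates differed by more than 2-fold and all 4 values were repeated, that of the first mutant library in 129 other genes. Its duplicate hoxb1b, which acts in the segmentation of the hindbrain, was at 0.400 and 0.483 in wild type and at 0.187 and 0.536 in mutants. It was below hoxb1a in all 4 libraries.

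Groups 2 and 3 were all below 1 in each library. The ratio of hoxa2b, which specifies the second pharyngeal arch in zebrafish together with hoxb2a, was 0.504 and 0.455 in wild type and 0.394 and 0.969 in mutants. That of hoxb2a was 0.567 and 0.256 against 0.512 and 0.900. In both genes the genotypes overlapped, with the highest value in the second mutant library. Group 3 held one of the most even genes across libraries, hoxb3a, at 0.692 and 0.721 in wild type and 0.671 and 0.651 in mutants. The ratio of hoxc3a was 0.834 and 0.539 against 0.637 and 0.581, and that of hoxd3a 0.417 and 0.485 against 0.384 and 0.236. The groups of hoxb3a and hoxd3a did not overlap, with mutants lower, only narrowly so in hoxb3a, whereas those of hoxc3a did. Over all tested genes, 21.6% were lower without overlap.

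The central genes act in the posterior hindbrain, the trunk and the field of the pectoral fin. In group 4, 2 paralogs differed in opposite directions. The ratio of hoxd4a was 1.39 and 1.63 in wild type and 0.742 and 0.798 in mutants, with log2 fold -0.89 (SE 0.20; limma adjusted p = 0.321). Its wild-type values were the highest of the central genes, and the first was shared with 127 other genes. The ratio of hoxc4a was 0.494 and 0.574 in wild type and 1.30 and 0.862 in mutants. Its log2 fold was 0.87 (SE 0.27, limma adjusted p = 0.383), and all 4 values were repeated. Neither pair of groups overlapped. The other tested genes of group 4 showed no separation, hoxa4a at 0.658 and 0.489 against 0.755 and 0.652, and hoxb4a at 0.817 and 0.369 against 0.407 and 0.722.

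Group 5 includes hoxb5a and hoxb5b, which belong to the clusters needed to place the pectoral fin in zebrafish. All 3 tested members had positive log2 folds, from 0.35 to 0.49, as did 9035 of all 17601 tested genes. All 3 overlapped between genotypes. The ratio of hoxb5a was 0.533 and 0.679 in wild type and 0.583 and 1.08 in mutants, and that of hoxb5b was 0.890 and 0.675 against 1.22 and 0.850. That of hoxc5a was 0.789 and 0.428 against 0.591 and 1.23, with the highest value in the second mutant library. Group 6 went the other way, with all 4 members at negative log2 folds from -0.73 to -0.33, against 48.7% of all tested genes. Its lowest member was hoxc6b, at 0.374 and 0.203 in wild type and 0.122 and 0.149 in mutants, the lowest mean of any tested Hox gene in mutants. The ratio of hoxb6a was 0.853 and 0.675 in wild type and 0.604 and 0.531 in mutants, also without overlap. That of hoxc6a overlapped, at 0.452 and 1.16 against 0.437 and 0.716. In hoxb6b the mutant replicates were at 1.03 and 0.115, on either side of the wild-type values of 0.614 and 0.833.

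Group 7 had a single member, hoxb7a, in which replicate 1 was low and replicate 2 high in both genotypes, at 0.336 and 0.911 in wild type and 0.287 and 0.940 in mutants. In group 8, the ratio of hoxb8b was 0.108 and 0.440 in wild type and 0.894 and 1.465 in mutants. This was the largest positive log2 fold in the family, 1.90 (SE 0.56, limma adjusted p = 0.378), and all 4 of its values were repeated. Without wild-type replicate 1, its lowest value, the log2 fold was 1.21. Its duplicate hoxb8a was at 0.575 and 0.841 in wild type and 0.402 and 0.755 in mutants. The third member, hoxc8a, was at 0.558 and 0.0947 against 0.453 and 0.309, so its wild-type replicates enclosed both mutant values.

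The posterior genes pattern the trunk, the tail and the outer parts of the fins. All 5 genes of group 9 had negative log2 folds, from -1.60 to -0.14, and in 4 of them the mutant libraries were both below the wild-type ones. Over all tested genes, 48.7% had negative folds and 21.6% were lower without overlap. The ratio of hoxa9a, whose human counterpart is active in blood progenitors and leukaemia, was 0.749 and 0.889 in wild type and 0.305 and 0.125 in mutants. Its log2 fold of -1.60 (SE 0.36, limma adjusted p = 0.319) was the most negative of the family, and all 4 values were repeated. The ratio of hoxd9a was 1.12 and 0.625 against 0.391 and 0.321, that of hoxc9a 0.913 and 1.445 against 0.692 and 0.696, and that of hoxb9a 0.705 and 0.744 against 0.627 and 0.668. The duplicate of hoxa9a, hoxa9b, overlapped between genotypes because 1 wild-type library was low, at 0.311 and 0.913 against 0.327 and 0.334.

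In group 10 the genotypes overlapped apart from hoxd10a, at 0.683 and 1.08 in wild type and 0.612 and 0.502 in mutants. The ratio of hoxa10b was 0.760 and 0.451 against 0.409 and 0.502, that of hoxb10a 0.766 and 0.520 against 0.759 and 0.544, and that of hoxc10a, whose mouse counterpart acts in lumbar motor neurons, 0.837 and 0.710 against 1.105 and 0.453. In group 11, whose mouse counterparts pattern the forearm, the sacral spine and the kidney, paralogs differed in opposite directions. The ratio of hoxc11b was 1.22 and 1.445 in wild type and 0.569 and 0.699 in mutants. Its log2 fold was -0.96 (SE 0.22, limma adjusted p = 0.321), and all 4 values were repeated, the first wild-type one in 139 other genes. The ratio of its duplicate hoxc11a was 0.168 and 0.569 in wild type and 0.626 and 0.615 in mutants. There the first wild-type library was far below the other 3. The ratio of hoxa11b scarcely varied, at 0.806 and 0.757 in wild type and 0.816 and 0.753 in mutants.

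In group 12, the ratio of hoxc12a was 0.525 and 0.648 in wild type and 0.290 and 0.238 in mutants. Its log2 fold was -0.91 (SE 0.22, limma adjusted p = 0.341), and 3 of its values were repeated. Its duplicate hoxc12b overlapped, at 0.584 and 0.793 against 0.813 and 0.400. Group 13 acts at the end of the axis and in the distal fin skeleton. The ratio of hoxd13a was 1.43 and 1.17 in wild type and 0.696 and 0.427 in mutants. Its log2 fold was -1.10 (SE 0.29, limma adjusted p = 0.350), and all 4 values were repeated, the first mutant one in 88 other genes. The ratio of hoxb13a was 1.15 and 0.994 against 0.835 and 0.586, also with no overlap. In the opposite direction, hoxc13a was at 0.416 and 0.564 in wild type and 0.715 and 1.465 in mutants, and its duplicate hoxc13b overlapped at 0.918 and 1.99 against 0.659 and 1.35. The replicates of hoxa13b disagreed within each genotype, at 0.295 and 0.600 in wild type and 1.37 and 0.280 in mutants.

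The comparison of mutants with wild type addressed how the loss of normal mycn, which encodes a Myc family transcription factor, bears on ribosome loading. With limma across all genes, 0 of 17601 genes (0%) had an adjusted p under 0.05, and 0 of 44 Hox genes did. An unadjusted p under 0.05 was reached by 9 of the 44 Hox genes, against 2023 of all tested genes (11.5%). Of the 9, 3 had higher ratios in mutants, against a background of 6.78% of genes, and 6 had lower ones, against 4.71%. Adjusted p ran from 0.319 for hoxa9a to 0.996 for hoxa11b.

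The log2 fold was negative in 28 of the 44 tested Hox genes, against 48.7% of all tested genes, and the Hox median was -0.17, against 0.013 over all tested genes. Both mutant libraries lay below both wild-type libraries in 15 Hox genes (34.1%), against 21.6% of all tested genes. They lay above in 6 Hox genes (13.6%), against 23.1%, and in 23 the groups overlapped. Outside the hoxda cluster, mutants were lower without overlap in 9 of 37 genes (24.3%) and higher in 6 (16.2%), which is near the background for the lower genes.

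**Figure D3:**
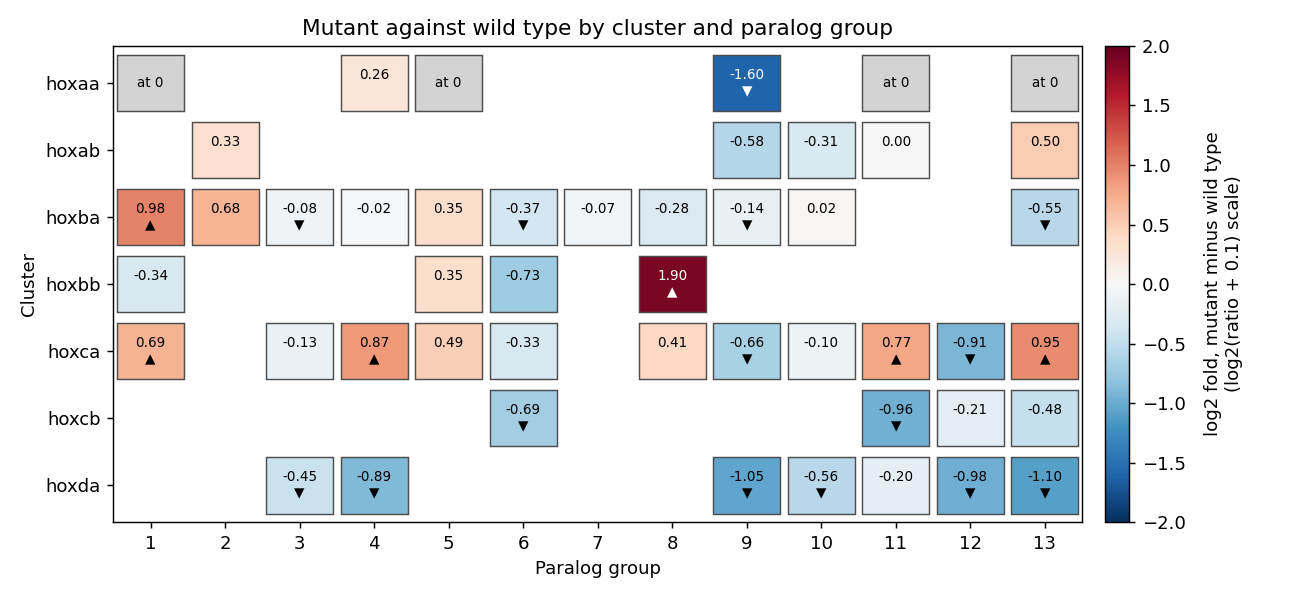
Log2 fold of each Hox gene, mutant minus wild type on the log2(ratio + 0.1) scale, by cluster (rows) and paralog group (columns), with blue for lower and red for higher in mutants and grey for genes at 0 in a library. Triangles mark genes whose mutant libraries both lay above or both below the wild-type libraries; every tested gene of hoxda and of hoxcb has a negative fold, and none of these folds passed the test.

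By cluster, hoxda had the lowest folds among clusters with more than 2 tested genes. All 7 of its genes had negative log2 folds, against 48.7% of all tested genes. They ran from -1.10 to -0.20, with a median of -0.89. In 6 of the 7 the mutant libraries were both lower, against 21.6% of all tested genes. The exception was hoxd11a, at 1.84 and 0.893 in wild type and 0.849 and 1.43 in mutants. The ratio of hoxd12a was 1.37 and 0.677 in wild type and 0.626 and 0.308 in mutants. The wild-type medians of hoxda were 1.37 and 0.893, above the Hox medians in those libraries, whereas its mutant medians of 0.626 and 0.427 were at or below them. The pattern was seen only after the values were known and no test of it was made. All 7 genes have repeated values, in 3 or 4 of their libraries. With 1 RNA-seq sample of each genotype, the libraries of a genotype may share 1 mRNA measurement. The mutation then cannot be told apart from a difference between those RNA-seq samples, and their part in the result was not tested. Leaving out 1 library cannot turn the folds of the 6 genes without overlap, so the count of negative folds shows no stability. The median then ran from -0.84 to -0.56, the latter without mycn mutant replicate 2.

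Among the other clusters, all 4 genes of hoxcb had negative folds, with a median of -0.58. In 2 of them (50%, against 21.6% of all tested genes) the mutants were lower without overlap. The hoxca cluster had 6 positive and 5 negative folds with a median of 0.41, and mutants were higher without overlap in 4 of 11 genes (36.4%, against 23.1% of all tested genes) and lower in 2 (18.2%, against 21.6%). The hoxba cluster had a median of -0.066, with 4 of 11 genes lower (36.4%) and 1 higher (9.09%) without overlap, against the same background. The medians were 0.0044 over the 5 genes of hoxab and 0.0084 over the 4 of hoxbb. Only 2 of the 6 genes of hoxaa were tested.

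By position along the axis, the ranges were described without a test of their difference, since genes are not replicates. The median log2 fold was -0.48 over 21 posterior genes, of which 16 had negative folds (48.7% of all tested genes did) and 10 (47.6%) were lower without overlap, against 21.6% of all tested genes. Over 16 posterior genes outside hoxda the median was -0.26, with 11 negative folds. Over 15 central genes the median was -0.024, with 8 negative folds, and over 8 anterior genes it was 0.12, with 4 negative folds. Without hoxb1a and hoxc1a the anterior median was -0.10 over 6 genes, with 4 negative folds. The posterior median was -0.26 over the same 21 genes without wild-type replicate 2. The central median turned positive when wild-type replicate 1 (0.20), wild-type replicate 2 (0.018) or mutant replicate 1 (0.17) was left out, and the anterior median was 0.43 without mutant replicate 1 and -0.066 without mutant replicate 2, so neither kept its sign.

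**Figure D4:**
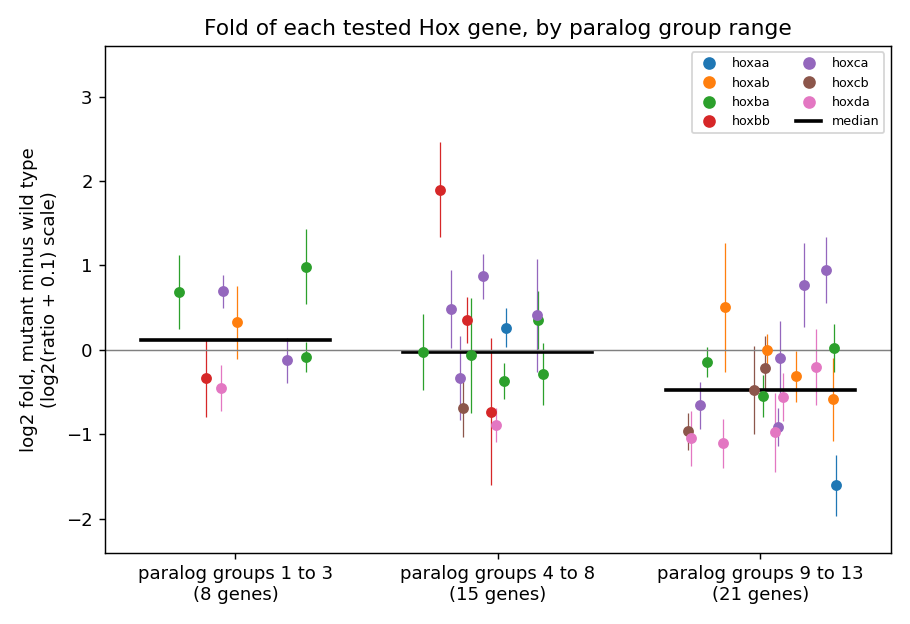
Log2 fold of each tested Hox gene, mutant minus wild type on the log2(ratio + 0.1) scale with bars of 1 standard error, by paralog group range and coloured by cluster; horizontal bars are medians and the position of points within a range is random. The medians are 0.12, -0.024 and -0.48 from anterior to posterior, and points of both signs occur in every range. Without hoxb1a and hoxc1a the anterior median is -0.10.

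The duplicated genes showed no steady order. Of 11 pairs of an a and a b duplicate, the a gene was higher in all 4 libraries in 2 pairs (hoxb1 and hoxc6), the b gene in 1 (hoxc12), and the order changed between libraries in 8. In 9 pairs both duplicates were tested, and their folds had opposite signs in 4 pairs and the same sign in 5. The pairs with opposite signs were hoxb1, hoxb8, hoxc11 and hoxc13.

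Some Hox genes overlap in the genome, which can affect which gene a read is counted for. In the RefSeq annotation of GRCz12tu, a later assembly than the one the submitters' processing notes name, 17 members overlap another Hox gene. The group 3 genes of several clusters overlap their neighbours there. The gene hoxd3a overlaps hoxd4a, hoxb3a overlaps hoxb4a, hoxb5a and hoxb6a, and hoxa3a overlaps hoxa4a and hoxa5a. The gene hoxc3a overlaps hoxc4a, hoxc5a, hoxc6a, hoxc8a and hoxc9a, while hoxb1b overlaps hoxb5b and hoxb6b. Whole gene intervals were compared, so whether exons are shared was not examined. The labels do not say how reads in shared stretches were counted, so the values of these genes are uncertain in that respect. Of the 7 hoxda genes, hoxd3a and hoxd4a are among them.

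The partners and regulators of Hox proteins were not called either, as 0 of all 17601 tested genes were (0%). No member of the 7 lists named next passed the test over all genes, and the smallest adjusted p among them was 0.253. The TALE homeodomain cofactors of the Pbx, Meis and Pknox families, which bind DNA together with Hox proteins, had a median log2 fold of -0.064 over 13 tested genes, with 5 positive and 8 negative. Without overlap, 5 were lower (38.5%, against 21.6% of all tested genes) and 2 higher (15.4%, against 23.1%). Their member with the smallest p, pbx3a, was at 0.307 and 0.312 in wild type and 0.894 and 0.488 in mutants. All 4 of its values were repeated, the first mutant one in 96 other genes. The next, pbx1a, had no repeated value and was lower in mutants, at 0.888 and 0.937 against 0.666 and 0.714. The upstream regulators of Hox transcription, such as the Cdx factors, had a median of -0.084 over 7 tested genes of 10, with 3 positive and 4 negative. Of these, tbx16 had the smallest p of all the lists, at 22.7 and 23.1 in wild type and 57.9 and 50.0 in mutants. The next, tbxta, was lower in mutants, at 774 and 778 against 577 and 597. Both genes had ratios far above the medians of all tested genes, 0.762 to 0.779 by library. The depth behind such ratios is unknown.

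Retinoic acid, made in the trunk and broken down by Cyp26 enzymes, sets the front borders of many Hox domains. The 22 tested genes of its pathway had a median of -0.036, with 9 positive and 13 negative folds. Without overlap, 5 were higher (22.7%, against 23.1% of all tested genes) and 2 lower (9.09%, against 21.6%). The retinoid X receptor gene rxrab was at 1.60 and 1.71 in wild type and 3.13 and 3.46 in mutants. Its first mutant value was shared with 109 other genes. Polycomb and Trithorax genes, whose products keep Hox genes silent or active, had a median of -0.019 over 27 tested genes of 29 listed, with 12 positive and 15 negative. The cluster neighbours and the related ParaHox genes, with the Cdx genes listed again, had a median of -0.21 over 11 tested genes, with 4 positive and 7 negative.

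Genes of 2 sites of Hox action were also read. The 15 tested genes of the pectoral fin had a median of 0.077, with 9 positive and 6 negative folds. Without overlap, 4 were higher and 4 lower (26.7% each), against 23.1% and 21.6% of all tested genes. The fin growth factor gene fgf10a was at 0.854 and 0.695 in wild type and 2.06 and 1.63 in mutants. Its second wild-type value was shared with 90 other genes. In contrast, sall4 was lower in mutants, at 1.34 and 1.46 against 1.05 and 0.812. The 19 tested genes of hindbrain and spinal neurons had a median of -0.22, with 8 positive and 11 negative. In 7 of them (36.8%) mutants were lower without overlap, against 21.6% of all tested genes. Of these, phox2bb, a regulator of visceral motor and enteric neurons, was at 0.853 and 0.817 in wild type and 0.506 and 0.466 in mutants. Another, dbx1b, a regulator of spinal interneurons, was at 0.802 and 0.622 against 0.285 and 0.117. In 2 of the 19 neuron genes (10.5%) mutants were higher without overlap, against 23.1% of all tested genes. In the other lists the share lower without overlap ran from 9.09% (retinoic acid pathway) to 38.5% (TALE cofactors).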

How the data were processed

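Per the file name and headers, each deposited value is a translation efficiency of 1 Ribo-seq library, read as a ratio derived from FPKM values. That the footprint FPKM was divided by an mRNA FPKM before deposit is inferred from the term translation efficiency. The headers do not state it. The labels state neither the authors' denominator nor any filter or offset. The build GRCz11 and the tools STAR, featureCounts and limma are named, with no roles, in the submitters' processing notes. Depth is unknown without the counts, and counting intervals are left out.

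Genes above 0 in all 4 libraries were tested with limma 3.58.1 in R 4.3.3 on log2(ratio + 0.1), mutant against wild type, two-sided, with an empirical Bayes trend, 2 residual degrees of freedom and Benjamini-Hochberg adjustment over all tested genes at 0.05. Fold changes are on this scale, which understates the change of low ratios. The fit was tested on simulated data. The Hox members and the other lists were chosen with earlier results of these data known. Folds are given for the 8 Hox genes with the smallest p and for any with no repeated value, and ratios for any member; of other lists, members among the 3 with the smallest p were named. Other pseudocounts, filters, scalings, a fit without trend, a replicate block and leaving out each library were tried.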

Additional observations from a re-analysis of the deposited data

How the results depend on the processing

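Under each of the 13 alternatives tried, 0 Hox genes were called. The count over all genes was 0 with a pseudocount of 0.01, a minimum mean ratio of 0.1, median centring, quantile normalization, no trend, the replicate block and without any 1 library; it was 6 with a pseudocount of 1, 177 with genes at 0 kept and 36 among the 2626 genes without repeated values, fitted alone. The Hox median log2 fold of -0.17 became -0.074 with a pseudocount of 1, -0.134 with genes at 0 kept, and 0.69 when only hoxc1a, the single Hox gene without repeated values, was left; that gene also gave the anterior median of 0.69 and library medians of 5.72, 5.59, 9.70 and 8.73. The posterior median was -0.251 with a pseudocount of 1, and the central median was 0.12 with genes at 0 kept. Without 1 library, the Hox median ran from -0.207 to -0.103, the anterior median from -0.066 to 0.426, the central median from -0.039 to 0.202 and the posterior median from -0.608 to -0.258; the lone sample of a genotype is then assumed to vary like the others. The 8 genes with a fold had no overlap between genotypes, so neither another pseudocount nor leaving out 1 library could change its sign. The filters, the fit without trend and the replicate block left the fold itself unchanged. Median centring and quantile normalization kept its sign, but with quantile normalization the log2 fold of hoxc1a fell from 0.69 to 0.41. With all 4 libraries kept none of the 8 passed, with limma adjusted p between 0.0557 and 0.536. The hoxda median, examined after seeing the data, was -0.45 with a pseudocount of 1.

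Replicate numbers are shared by the genotypes in the labels. The deviations of same-numbered samples correlated at 0.0097 over 17601 genes, and the number was not treated as a pairing. Whether same-numbered samples shared a preparation is not in the labels and was not tested. With the replicate block 0 Hox genes and 0 of all genes were called, and the Hox median stayed at -0.17. Precision is limited by the low coverage that repeats and zeros mark.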
